A study of Mus musculus with 4 samples.

Results

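The 9 genes described here encode sensors of nucleic acids and of bacterial cell wall fragments in the cytosol, together with their direct adaptors: Ddx58 (RIG-I), Ifih1 (MDA5), Dhx58 (LGP2), Mavs, Cgas (listed in older annotation as Mb21d1), Sting1 (older symbol Tmem173), Zbp1, Nod1 and Nod2. They were chosen by name, 9 of 21883 protein-coding genes of the mouse annotation, and every peak that overlapped one of them or lay within 1000 bp of it was taken. The peaks came from chromatin immunoprecipitation with sequencing (ChIP-seq) of thioglycollate-elicited peritoneal macrophages of C57BL/6 mice, 8 weeks old, kept in culture after harvest. 4 libraries were made: H3K4me3 wild type, H3K4me3 Sun-/-, H3K9me3 wild type and H3K9me3 Sun-/-. Which gene is meant by Sun, whether its deletion was limited to a cell type and how many animals were pooled are not given in the labels. With 1 library for each mark and genotype no difference has a replicate check, no p-value is given, and the 95% intervals below allow for counting error alone. Coordinates refer to mm10.

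RIG-I and MDA5 are helicases that bind viral RNA and pass the signal to MAVS on the mitochondrial surface. cGAS binds DNA and makes a cyclic dinucleotide that activates STING on the endoplasmic reticulum. Both routes lead to type I interferon, and several of these sensor genes are themselves raised by interferon in macrophages. NOD1 and NOD2 bind peptidoglycan fragments and act through the kinase RIPK2 on NF-kB. H3K4me3 lies at the start of active or poised genes, and H3K9me3 marks silenced chromatin.

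The libraries held 26748289 to 29681491 tags after removal of duplicates. Of these tags, H3K4me3 peaks took up 17.8% (wild type) and 14.0% (knockout). A smaller share of cells with the mark, less mark per cell and a difference between the library preparations cannot be told apart here. Of 14 macrophage marker genes 12 had H3K4me3 in both genotypes, against 0 of 8 neutrophil, 3 of 10 T and NK cell, 3 of 6 B cell, 2 of 7 eosinophil and mast cell, 4 of 6 dendritic cell and 5 of 10 mesothelial and fibroblast markers. Marked only in wild-type cells were a further 4 mesothelial and fibroblast (40% of that list), 2 T and NK cell (20%) and 1 neutrophil markers (12.5%). Only in knockout cells were 2 neutrophil (25%) and 1 macrophage markers (7.14%). Among all protein-coding genes these shares were 2.93% and 1.43%, while 67.3% carried the mark in wild-type and knockout cells alike. Dendritic cell markers, at 66.7%, were close to that last share. The lists are short, at 6 to 14 genes. The part of other cells in the values below was not tested.

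Sequence upstream of the start was at hand for 6 of the 9 genes, from RefSeq (GRCm38.p6). The stretches of Ddx58, Mavs and Nod2 are shown because H3K4me3 covered them to a different extent at each gene. The 250 bases before the annotated start of each are printed 5′ to 3′ along the gene, with CG dinucleotides in capitals.
Ddx58, chr4:40239826-40240075, minus strand: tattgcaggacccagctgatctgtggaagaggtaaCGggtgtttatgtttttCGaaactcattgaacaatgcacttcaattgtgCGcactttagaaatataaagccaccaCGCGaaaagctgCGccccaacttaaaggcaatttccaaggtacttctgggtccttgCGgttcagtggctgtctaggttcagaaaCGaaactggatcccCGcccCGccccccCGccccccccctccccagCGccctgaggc
Mavs, chr2:131233813-131234062, plus strand: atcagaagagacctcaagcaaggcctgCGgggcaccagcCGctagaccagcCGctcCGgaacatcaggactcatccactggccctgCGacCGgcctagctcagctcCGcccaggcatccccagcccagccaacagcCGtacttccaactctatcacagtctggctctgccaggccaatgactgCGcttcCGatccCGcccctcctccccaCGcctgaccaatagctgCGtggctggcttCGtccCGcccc
Nod2, chr8:88647097-88647346, plus strand: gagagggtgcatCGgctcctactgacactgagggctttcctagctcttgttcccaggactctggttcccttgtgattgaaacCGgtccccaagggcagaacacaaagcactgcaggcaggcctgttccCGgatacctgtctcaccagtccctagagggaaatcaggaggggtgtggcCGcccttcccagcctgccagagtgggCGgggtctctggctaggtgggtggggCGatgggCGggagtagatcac

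The wild-type H3K4me3 peak covered all 250 of these bases at Ddx58, whereas the knockout peak covered 15 of them. At Nod2 both peaks covered all 250 bases, and at Mavs both peaks began inside the gene and covered 0. For Ifih1 the same stretch was covered over 250 and 188 bases, wild type first, and for Cgas over 180 and 165. Both start windows of Nod1 were covered in full in both genotypes. CG dinucleotides numbered 12 in the Ddx58 stretch, 15 in that of Mavs and 7 in that of Nod2. Over the whole window of 250 bases before to 50 after the start, the outermost start of each gene had 9 (Nod2) to 19 (Mavs), and the second start of Nod1 had 6, against a median of 7 over 32851 promoter windows.

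Matches to the core of the interferon-stimulated response element (ISRE), the letters GAAA, then NN, then GAAA again on either strand, were found in the windows of Ddx58 and Ifih1, the 2 RNA sensor genes with a window, in both cases just after the start. The 30 bases around each match are shown because interferon-inducible genes often carry this element, with the match in capitals.
Ddx58, chr4:40239804-40239833, minus strand: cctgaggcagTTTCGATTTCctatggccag
Ifih1, chr2:62646206-62646235, minus strand: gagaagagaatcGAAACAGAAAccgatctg

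The Ddx58 match lay on the opposite strand at bases 3 to 12 counted from the start as 1, and the Ifih1 match on the gene's own strand at bases 33 to 42. Both sites lay fully within the H3K4me3 peak of each genotype. Of all promoter windows, 3.44% held such a match. The windows of Mavs, Cgas, Nod1 and Nod2 held 0 matches to these letters. The NF-kB core, GGGA and TTCC joined by NN and found in 1.47% of all windows, had 0 matches in the windows of the members. The STAT element TTCNNNGAA (8.30% of windows) matched once, 193 bases before the second start of Nod1, and the PU.1 core GAGGAA (28.3%) matched once, 246 bases before the start of Ifih1. The matches did not overlap each other. A match is a run of letters and shows no binding.

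All 9 sensor genes had an H3K4me3 peak in both genotypes, a state found in 67.3% of protein-coding genes. Peaks in the wild type alone were found in 2.93% of genes and in the knockout alone in 1.43%, and the sensor genes had 0 of either. In every one of the 9 the peak with the most tags lay at one gene end and overlapped its counterpart in the other genotype. For the 6 genes with an annotated start that end was the start side. At Nod1 and Nod2 the outermost annotated start lay slightly inside the gene, at 54972612 against a gene end of 54972674 and at 88647347 against 88647315. Distances of edges and summits below are counted from the gene end.

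**Figure D1:**
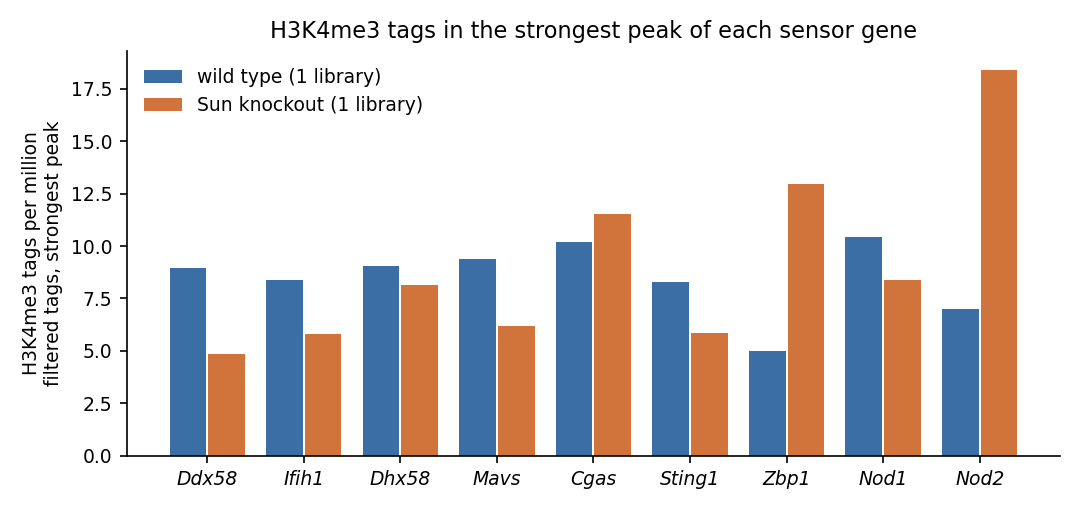
H3K4me3 in the strongest peak of each sensor gene, in tags for every 1000000 tags left after duplicate removal, for wild type and Sun knockout (1 library each, so there are no error bars). Zbp1 and Nod2 stand at 13.0 and 18.4 in the knockout against 4.99 and 7.01 in the wild type, while 6 genes are lower in the knockout.

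In tags, the strongest peaks had a wider range in the knockout, with Nod2 and Zbp1 at its upper end. Scaled to 1000000 tags left after duplicate removal (scaled tags), wild-type peaks held 4.99 to 10.4 tags, a 2.09-fold range. Each value counts the tags inside the peak called in that genotype, so stretches of unlike length are compared. Knockout peaks held 4.86 to 18.4, a 3.78-fold range. Nod2 (18.4) and Zbp1 (13.0) were the highest there, followed by Cgas at 11.5. In tags per kb, given in the next paragraph, the range was not wider in the knockout. In the knockout 6 genes had fewer scaled tags (Ddx58, Ifih1, Dhx58, Mavs, Sting1 and Nod1) and 3 had more (Cgas, Zbp1 and Nod2). Fewer scaled tags were the rule, found in 90.1% of the 14024 protein-coding genes whose strongest peaks overlapped between genotypes. At least 2-fold more scaled tags were found in 37 genes (0.264%), among them Zbp1 and Nod2. At least 2-fold fewer were found in 4.61% of genes and in 0 sensor genes.

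Compared per kb, wild-type H3K4me3 in the strongest peak was highest at Cgas, with 209 tags per kb (interval 186 to 234). Nod1 (167), Dhx58 (166), Ifih1 (155), Mavs (135), Ddx58 (125), Nod2 (116) and Sting1 (115) followed, and Zbp1 was lowest at 97.4 (82.4 to 114). Each neighbouring pair in this order had overlapping intervals. In the knockout the order ran from Dhx58 with 139 tags per kb (121 to 158) over Cgas (129), Nod1 (125), Mavs (122), Nod2 (113), Ifih1 (113), Zbp1 (102) and Ddx58 (81.7) to Sting1 with 80.7 (68.5 to 94.4), again with overlapping intervals between neighbours. Cgas was thus the densest in the wild type, while Nod2 and Zbp1, which had the most tags in the knockout, were not among the densest there.

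**Figure D2:**
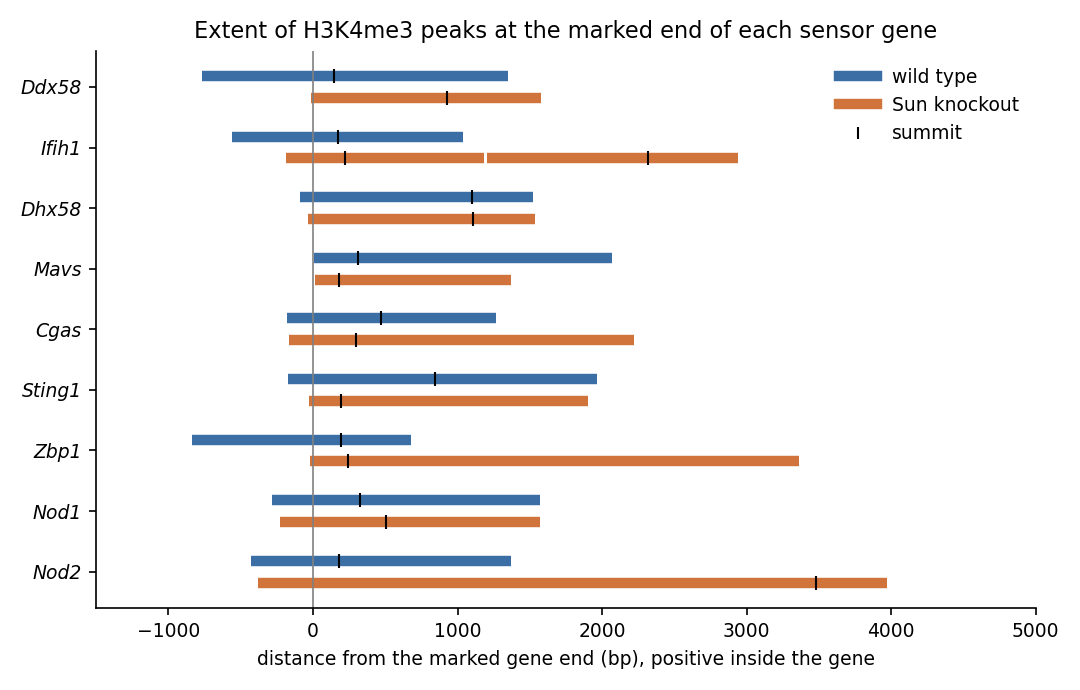
Extent of the H3K4me3 peaks at the marked end of each sensor gene, as the distance in bp from that end, positive inside the gene (wild type blue, Sun knockout orange, black tick for the summit). The knockout peaks of Zbp1 and Nod2 reach 3365 and 3969 bp into the gene against 681 and 1370 bp in the wild type, and those of Ddx58 and Zbp1 end close to the gene end.

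The peaks of the 2 genotypes also differed in where they lay. In all 9 genes the knockout peak reached less far outward from the gene than the wild-type peak, with differences of -815 to -12 bp, which held for 63.6% of the 11670 protein-coding genes with 1 marked end. In 7 of the 9 it also reached further into the gene, by 2 to 2684 bp, against 33.8% of genes. Both together were found in the same 7 genes and in 20.9% of all. At Nod1 and Dhx58 the inward gain was 2 and 11 bp. Width, edges and summit were called separately in each library, from fewer tags in the knockout, and the median strongest peak over all genes was 0.931-fold as wide there. These measures of extent were chosen after the peaks had been seen.

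Among the RNA sensors, Ddx58, which encodes the sensor of short and 5′-triphosphate RNA, lies at chr4:40203777-40239825 on the minus strand. It had a wild-type peak (chr4:40238474-40240592) of 265 tags over 2119 bp. Its knockout peak (chr4:40238249-40239840) held 130 tags over 1592 bp. The outer edge lay 767 bp (wild type) and 15 bp (knockout) beyond the start, while the inner edges lay 1351 and 1576 bp inside. The knockout peak thus ended close to the start of the gene. An outer edge drawn in by at least 500 bp was found in 8.99% of genes, with Ddx58 and Zbp1 among them, and one at least 500 bp further out in 2.31% and in 0 of the 9. The summits lay 146 and 927 bp inside the gene. The ratio of knockout to wild-type tags per kb, on the log2 scale and centred on the median of 17114 peak pairs, was -0.28 (interval -0.59 to 0.03), above 9.55% of pairs.

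Ifih1, the gene of MDA5, which senses long double-stranded RNA, lies at chr2:62595618-62646255 on the minus strand. It had a wild-type peak (chr2:62645216-62646813) of 248 tags over 1598 bp. In the knockout a peak of 155 tags over 1370 bp (chr2:62645074-62646443) was paired with it, at a centred ratio of -0.12 (-0.42 to 0.18). A second knockout peak (chr2:62643314-62645051) of 129 tags over 1738 bp began 22 bp further inside the gene, with its summit 2320 bp from the start, and had no wild-type counterpart. Taken alone, the paired knockout peak had 0.694-fold the wild-type scaled tags (log2 -0.53, interval -0.83 to -0.23). With both knockout peaks joined, Ifih1 had 284 tags over 3108 bp and 1.27-fold the scaled tags (log2 0.35, 0.09 to 0.60), so its direction turned with the joining. The joined marked stretch ran 2941 bp into the gene, against 1039 bp in the wild type.

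Dhx58 encodes LGP2, a helicase that lacks the signalling domains of the other 2 and modulates them, and lies at chr11:100694884-100704271. Its peaks (wild type chr11:100702746-100704361, knockout chr11:100702735-100704307) held 269 and 218 tags over 1616 and 1573 bp. The outer edges lay 90 and 36 bp beyond the gene, the inner edges 1525 and 1536 bp and the summits 1099 and 1105 bp inside it. Of the 9 genes Dhx58 had the smallest difference in summit position. The centred ratio was 0.07 (-0.19 to 0.34), and -0.11 (-0.38 to 0.15) when scaled to filtered tags. The same peaks lay within 1000 bp of Kat2a, which encodes a histone acetyltransferase.

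Mavs (chr2:131234063-131248025, plus strand), the adaptor of both RNA sensors, had peaks that began just inside the gene, 4 bp (wild type) and 16 bp (knockout) from the start. They held 279 tags over 2069 bp (chr2:131234067-131236135) and 166 tags over 1358 bp (chr2:131234079-131235436). Mavs was the single sensor gene whose peak was at least 1.5-fold narrower in the knockout, with a width ratio of 0.656. Such a peak was found in 13.6% of genes. Tags and width were both lower, and tags per kb were 135 and 122. The centred density ratio was 0.20 (-0.09 to 0.48), and 0.01 (-0.28 to 0.29) when scaled to filtered tags.

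For the DNA route, Cgas, which encodes the DNA sensor and lies at chr9:78430518-78443237 on the minus strand, had a wild-type peak (chr9:78441969-78443417) of 303 tags over 1449 bp and a knockout peak (chr9:78441014-78443402) of 308 tags over 2389 bp. The outer edges differed by 15 bp, and the inner edges lay 1268 and 2223 bp inside the gene. The centred density ratio was -0.36 (-0.59 to -0.12), above 4.87% of pairs, the lowest among the paired strongest peaks. In tags per peak, also centred, the ratio turned to 0.50 (0.27 to 0.74), since the knockout peak held about the same tags over a longer stretch. Mto1, a mitochondrial tRNA modification gene, starts within 1000 bp of the same peaks. A separate peak within 1000 bp of the other end of Cgas overlapped the pseudogene Gm8093. It held 183 wild-type tags and was called in the knockout as 2 peaks of 73 tags each, 1 of them within the window.

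Sting1, the receptor of the cyclic dinucleotide made by cGAS, lies at chr18:35733678-35740554. Its wild-type peak (chr18:35738590-35740730) held 246 tags over 2141 bp, and its knockout peak (chr18:35738649-35740581) 156 tags over 1933 bp. The width ratio was 0.903 and the centred ratio -0.17 (-0.47 to 0.12). The summit lay 844 bp (wild type) and 196 bp (knockout) inside the gene. Sting1 and Mavs, the 2 adaptor genes, were the 2 of the 9 whose knockout peak reached less far into the gene, from 1964 to 1905 bp and from 2072 to 1373 bp. A loss of at least 1000 bp in reach was found in 3.43% of genes and in 0 of the 9.

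Zbp1 encodes a sensor of Z-form nucleic acids that can start necroptosis through RIPK3, and lies at chr2:173206612-173218959. The wild-type peak (chr2:173218278-173219796) held 148 tags over 1519 bp and the knockout peak (chr2:173215594-173218981) 347 tags over 3388 bp. The summits lay 196 and 243 bp inside the gene. Around them the marked stretch differed, from 837 bp outside and 681 bp inside the gene (wild type) to 22 bp outside and 3365 bp inside (knockout). The knockout peak thus lay almost wholly inside the gene. The overlap was too small for a pair by the 50% rule. Scaled tags in the called peak were 2.60-fold higher (log2 1.38, 1.10 to 1.67) over a 2.23-fold wider peak. Wild-type tags beyond the edges of the wild-type peak are not counted, so the fold is not that of the same stretch. Raw tags per kb were 97.4 and 102. Scaled to filtered tags, the log2 ratio of tags per kb was 0.22, above the -0.19 of the median H3K4me3 pair.

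Nod2, the gene of the muramyl dipeptide sensor, lies at chr8:88647315-88688474 on the plus strand. It had a wild-type peak at its start (chr8:88646887-88648685) of 208 tags over 1799 bp. The knockout peak (chr8:88646938-88651284) held 492 tags over 4347 bp and was 2.42-fold as wide. Outer edges were close, 428 and 377 bp from the gene end, whereas the inner edge lay 1370 bp (wild type) and 3969 bp (knockout) inside. The summits lay 178 and 3480 bp inside the gene. A summit at least 1000 bp further inside was found in 0.754% of genes, and of the sensor genes in Nod2 alone. Scaled tags in the called peak were 2.62-fold higher (log2 1.39, 1.16 to 1.63), while raw tags per kb were 116 and 113. As at Zbp1, wild-type tags beyond the wild-type peak are not counted in this fold. Scaled to filtered tags, the log2 ratio of tags per kb was 0.12, above the -0.19 of the median H3K4me3 pair. The called knockout peak thus covered more of the gene, and its density was not lower after scaling. The 2 peaks overlapped too little for a pair. The fold enrichment given by the authors' peak caller was 6.12 and 3.87, each against the background of its own region.

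Nod2 also had 2 small wild-type peaks deep in the gene, of 34 tags (chr8:88661984-88662548) and 41 tags (chr8:88668899-88669407), 14.9 and 21.7 kb from its end at the start side. Neither had a knockout counterpart. The summed wild-type tags of Nod2 were above those of 45.5% of protein-coding genes with a peak, and the knockout tags above 88.2%. For Zbp1 the same shares were 20.5% and 74.5%.

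Nod1, the sensor of diaminopimelic acid-type peptidoglycan (gene at chr6:54923942-54972674, minus strand), had a start peak whose edges were close between genotypes. The wild-type peak (chr6:54971106-54972956) held 309 tags over 1851 bp and the knockout peak (chr6:54971104-54972899) 224 tags over 1796 bp, with a centred ratio of -0.08 (-0.34 to 0.17). Alone among the 9 genes, Nod1 had further peaks inside the gene in both genotypes, 4 in each. At least 5 H3K4me3 peaks in each genotype were found in 1.65% of protein-coding genes. From the start inward their wild-type summits lay 17.3, 24.3, 32.5 and 38.3 kb inside, with 82, 57, 84 and 50 wild-type tags and 39, 71, 82 and 77 knockout tags. Their centred ratios were -0.46 (-1.05 to 0.11), 0.70 (0.17 to 1.23), 0.25 (-0.21 to 0.71) and 0.20 (-0.33 to 0.74), so they went both ways. Scaled to filtered tags, the interval of the second included 0 (0.51, -0.02 to 1.04). Whether they lie in exons or introns was not determined here.

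**Figure D3:**
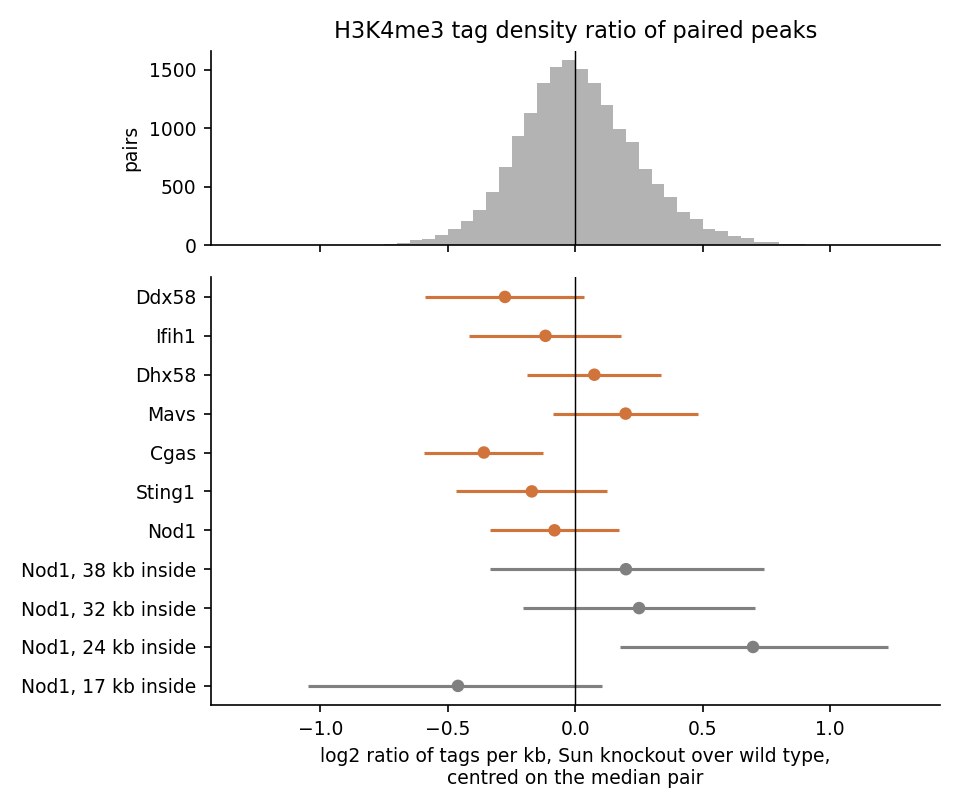
Upper panel: centred log2 ratios of H3K4me3 tags per kb, Sun knockout over wild type, for all 17114 peak pairs. Lower panel: the ratio of each paired sensor gene peak with its 95% counting interval (orange, strongest peak of the gene; grey, peaks inside Nod1 by distance from the start side). With this centring, of the strongest peaks the interval lies fully on one side of 0 for Cgas at -0.36, and of the inner peaks for the one 24 kb inside Nod1 at 0.70.

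Of the 7 sensor genes with a paired strongest peak, 5 had a centred ratio below 0 and the median was -0.12, where centring puts the median of all pairs at 0. None of the 7 reached 2-fold in either direction, as was the case for nearly all pairs (0.0409% denser and 0.0117% less dense in the knockout). Scaled to filtered tags the median of the 7 was -0.31 and that of all pairs -0.19. Under that scaling 78.5% of all pairs had a ratio below 0, and the share with an interval fully below 0 is not given here. Of the 7, Cgas was at -0.55 (-0.78 to -0.31), Ddx58 at -0.46 (-0.78 to -0.16) and Sting1 at -0.36 (-0.66 to -0.06). Ifih1 was at -0.31 (-0.60 to -0.01) and Nod1 at -0.27 (-0.53 to -0.02). Dhx58 was at -0.11 (-0.38 to 0.15) and Mavs at 0.01 (-0.28 to 0.29). Of these 7, the interval of Cgas alone lay fully below the -0.19 of the median pair. Zbp1 and Nod2, without a pair, are outside these medians.

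**Figure D4:**
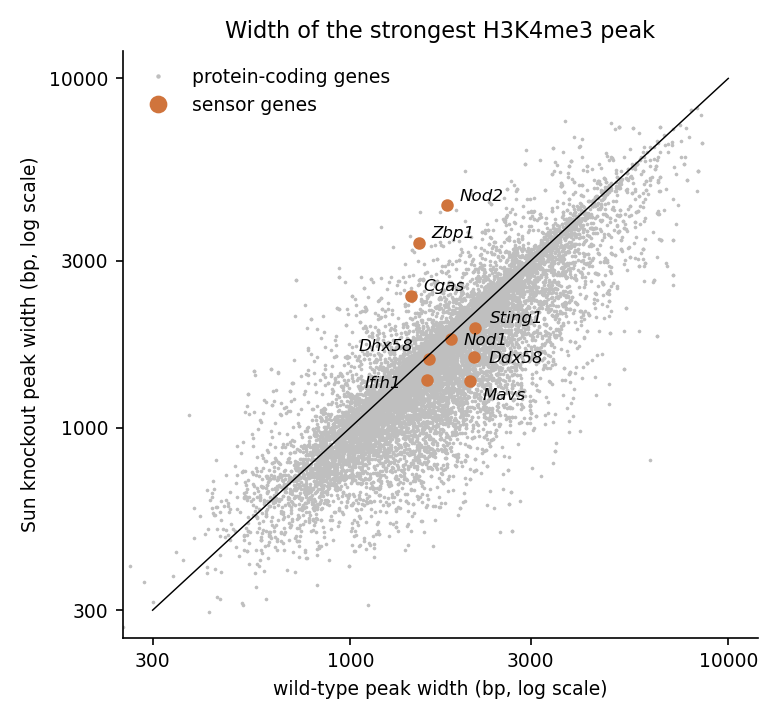
Width of the strongest H3K4me3 peak in wild type (x) and Sun knockout (y), both in bp on log scales, for 14024 protein-coding genes (grey) and the sensor genes (orange); the line marks equal width. Nod2, Zbp1 and Cgas lie above the line at 2.42, 2.23 and 1.65 times the wild-type width, and Mavs lies below at 0.656.

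In all, 3 of the 9 sensor genes (Cgas, Zbp1 and Nod2) had a strongest peak at least 1.5-fold wider in the knockout, against 376 of 14024 genes (2.68%). Their width ratios were above those of 98.3%, 99.7% and 99.8% of genes. Peaks that reached at least 1000 bp further into the gene were found for Zbp1 and Nod2 and in 1.25% of genes. With peaks within 1000 bp joined, Ifih1 was added to both counts, giving 4 and 3 genes against 2.22% and 1.38%.

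Few H3K9me3 peaks lay at the sensor genes, and most protein-coding genes had none either. None had a peak in both genotypes, a state found in 16.9% of protein-coding genes, and 7 had none in either (63.2%). Nod1 was marked only in wild-type cells (as were 8.74% of genes), by a peak of 13 tags at chr6:54943113-54943332, with a score of 50.4 where the lists begin at 50. Nod2 was marked only in knockout cells (11.2%), by a peak of 19 tags at chr8:88664440-88664739. This peak lay between the 2 inner H3K4me3 peaks that were called in the wild type alone. Nod1 and Nod2 are among the longest of the 9 genes, at 48733 and 41160 bp, and Ifih1 with 50638 bp had none.

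Genes that work with these sensors were taken from a list of 120 names, 119 of which matched 115 genes. H3K4me3 was present in both genotypes at 110 of them, against 67.3% of protein-coding genes. In groups that share some genes, this covered all 19 genes of signalling below the RNA and DNA sensors, all 20 regulators of RIG-I and MDA5 and all 4 of the ZBP1 death pathway. It also covered 22 of 23 partners of cGAS and STING, 21 of 22 other nucleic acid sensors and 20 of 21 NOD pathway genes. Of 11 genes listed under nucleic acid handling that limits self ligand, it covered 9. Dnase1l3, which encodes a secreted DNase, was marked only in wild-type cells, with 21 tags, and Ifi209, of the DNA-binding Ifi200 family, only in knockout cells, with 37 tags. Ifi209 belongs to a cluster of similar genes, to which tags may be assigned with error.

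Over 101 of these genes with a pair the median centred ratio was -0.04, and 61 were below 0. Some genes whose extent differed most had no pair and are outside this ranking. Among them were Trex1, Tkfc and Oas2, wider in the knockout, and Mre11a, Prkdc and Slc46a3, narrower there. Traf5 entered with a pair of 80 and 52 tags, not with its strongest peaks of 372 and 216. The highest were Irf7, the master transcription factor gene of the interferon response, at 0.73 (0.52 to 0.94) with 337 and 429 tags, Slc15a4, a lysosomal transporter gene of NOD ligands, at 0.64 (0.46 to 0.81) with 713 and 439 tags, and Chuk, an IkB kinase gene, at 0.55 (0.27 to 0.82) with 299 and 181 tags. Irf7 alone of the 3 held more tags in the knockout. The peaks of Slc15a4 and Chuk were narrower there, at 1807 against 3612 bp and 1004 against 1916 bp. The lowest were Xiap, a ubiquitin ligase gene of NOD2 signalling, at -0.55 (-1.02 to -0.09) with 137 and 57 tags, G3bp1, a stress granule gene whose product aids cGAS, at -0.44 (-0.68 to -0.21), and Zcchc3, a cofactor gene of cGAS and RIG-I, at -0.42 (-0.63 to -0.21).

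Ripk2, the kinase of both NOD proteins, was at -0.37 (-0.68 to -0.07) with 238 and 150 tags, and Tbk1, which phosphorylates IRF3, at -0.05 (-0.32 to 0.23). Of the ZBP1 death pathway, Ripk3 and Mlkl were both at -0.20 and Ripk1 at -0.20, and Casp8 was at 0.25 (-0.02 to 0.52). These 6 genes were chosen for their roles after their values had been seen.

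In extent, 5 of 105 pathway genes measured had a strongest peak at least 1.5-fold wider in the knockout (G3bp1, Oas2, Oas3, Tkfc and Trex1), and 13 had one at least 1.5-fold narrower, against 2.68% and 13.6% of all genes. At least 2-fold more scaled tags were found in 0 of the 105 and at least 2-fold fewer in 4 (Mre11a, Prkdc, Slc46a3 and Xiap), against 0.264% and 4.61%. Of 90 with 1 marked end, 4 (Oas2, Slc15a3, Tkfc and Traf5) had a peak that reached at least 1000 bp further into the gene and 3 (Fadd, Irf5 and Prkdc) one that reached at least 1000 bp less far, against 1.25% and 3.43%. Oas2 and Oas3 encode synthetases that activate RNase L and belong to a family of similar genes.

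H3K9me3 was present in both genotypes at 24 of the 115 pathway genes, in the wild type alone at 8 and in the knockout alone at 19, where the shares of all genes were 16.9%, 8.74% and 11.2%. The most tags were found at Oasl1 (104 wild-type and 90 knockout tags), Prkdc (62 and 96), Erbin (35 and 84) and Tab2 (39 and 65). Those marked in the wild type alone were Smurf1, Traf3, Oas2, Chuk, Stim1, Tax1bp1, Mlkl and Rnaseh2c, with 12 to 35 tags. Trim56, a ubiquitin ligase gene of the STING route, had the most tags of those marked in the knockout alone, 74. The other 18 were Map3k7, Casp8, Tbk1, Rnaset2b, Itch, Slc15a3, Oas3, Dhx15, G3bp1, Trim32, Ywhae, Zc3hav1, Azi2, Rnf26, Mul1, Nlrc5, Surf4 and Enpp1, with 12 to 41 tags.

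The protein-coding gene nearest to each member in summed tags over the 4 libraries, measured as the Euclidean distance in log2(tags + 1), was Mfng for Ddx58, Nr2e1 for Ifih1, Ranbp10 for Dhx58, Usp14 for Mavs, Dctn3 for Cgas, H2bc14 for Sting1, Ifit1bl1 for Zbp1, Ubxn6 for Nod1 and Yjefn3 for Nod2. With 4 values to a gene many lie close: 3957 genes lay within a distance of 1 of Dhx58. Zbp1, Nod2 and Nod1 had the fewest such genes, 137, 242 and 350. Nod2 and Nod1 each had an H3K9me3 peak in 1 genotype alone, of 19 and 13 tags, which also enters this distance. Ifit1bl1 held 151 wild-type and 304 knockout tags of H3K4me3, against 148 and 347 for Zbp1, at a distance of 0.192. Yjefn3 held 305 and 447, against 283 and 492 for Nod2, at a distance of 0.190. These were the largest distances to a nearest gene among the sensor genes.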

How the data were processed

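Peak lists of 4 ChIP-seq libraries were used, 1 per mark and genotype, and groups were taken from the labels. The submitters' processing notes list build mm10 and, without roles, DiffBind, MACS 1.4.2, Bowtie 0.12.8 and CASAVA 1.4. Peaks were called for each library without a control, per the file headers. Each deposited peak has a raw tag count, a score (MACS's transformed p-value), a fold enrichment (a linear ratio) and, as other measures, its width and summit in bp, per the file headers.

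Members and other lists were matched by symbol or synonym to a RefSeq table of GRCm38.p6 (mm10), with peaks within 1000 bp. Peaks were paired 1 to 1 where each covered at least 50% of the other and 1 of them held at least 50 tags. Its log2 ratio of tags per kb was centred on the median pair, with an exact conditional binomial interval. Levels have exact Poisson intervals. Blocks were overlapping peaks of both genotypes. The strongest peak of a gene had the most tags. The size rule was 2-fold. No test was run. Named genes were the members, the pathway genes with the 3 highest and 3 lowest ratios, those marked in 1 genotype alone, the 4 with the most H3K9me3 in both, and the nearest gene to each member; others are said to be chosen later. Members, lists and rules were chosen with earlier results of these data known. The computation was tested on simulated data and used Python 3.11.15 with scipy 1.17.1, pandas 2.3.3, numpy 2.4.6 and matplotlib 3.10.9. Alternatives were other windows, score limits, scalings, overlaps, tag minimums and joining of peaks.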

Additional observations from a re-analysis of the deposited data

How the results depend on the processing

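The presence of H3K4me3 at all 9 sensor genes in both genotypes held under each window from 0 to 5000 bp, a score of at least 100 and equal numbers of peaks. The H3K9me3 counts were small and moved. Genes with H3K9me3 in both genotypes numbered 1 with a window of 2500 bp and 2 with 5000 bp, against 0. Those in the wild type alone numbered 0 with 5000 bp, with a score of at least 100 and with equal numbers of peaks, against 1, and those in the knockout alone 2 with 5000 bp and 0 with a score of at least 100, against 1. With a window of 500 bp, 2 pathway genes had H3K4me3 in the wild type alone, against 1. In tags per peak the Cgas ratio turned from -0.36 to 0.50 and that of Mavs moved from 0.20 to -0.27. With peaks within 1000 bp joined, the block ratio of Ifih1 turned from -0.53 to 0.35. With limits of 2-fold in width, 0 sensor genes were narrower in the knockout, against 1. With 80% reciprocal overlap, Ddx58, Ifih1, Mavs and Cgas had no pair and thus no value, and the median ratio of the remaining 3 was -0.04. The other 55 values for whole comparisons stayed within 1.5 times the count or within the spread. So did 59 values for single genes and pathway H3K9me3 counts, within their interval or 1.5 times the count. The alternatives for width and reach were chosen after seeing the data. No paired analysis was possible because each mark and genotype had 1 library. The H3K9me3 peaks of Nod1 and Nod2 rest on 13 and 19 tags. H3K9me3 peaks held 1.69% and 1.62% of the tags of their libraries.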

Other observations

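H3K9me3 peaks lay beyond the windows of 4 sensor genes, within 10 kb. Past the start of Cgas, inside Mto1, both genotypes had one, with 20 wild-type and 33 knockout tags, 2061 and 2003 bp from Cgas. Past the start of Nod1 a wild-type peak of 17 tags lay at 4046 bp, and knockout peaks of 22 and 42 tags at 2974 and 5322 bp did not overlap it. Past the far end of Ifih1 lay a knockout peak of 19 tags at 3884 bp. Downstream of Nod2, at Cyld, which encodes a deubiquitinase of the NOD2 pathway, H3K9me3 peaks of 24 wild-type and 13 knockout tags lay 8712 and 8930 bp away, inside H3K4me3 peaks of 343 and 256 tags.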
